A study of Mus musculus with 3 samples.

Results

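The IFI200 family is taken here as a set of interferon-inducible mouse genes whose proteins carry a HIN domain, a pyrin domain or both. A HIN domain binds DNA, and a pyrin domain binds other pyrin domains. The family's 10 members here are Mndal, Ifi213, Ifi204, Ifi203, Ifi205, Ifi211, Ifi209, Ifi207, Ifi208 and Ifi202b, taken by gene symbol from the gene and transcript tables. They are 10 of 55536 annotated genes and hold 37 annotated isoforms. In macrophages these proteins are known as nuclear and cytosolic sensors and regulators: some bind foreign DNA and act upstream of STING and of interferon, some control the inflammasome adaptor ASC, and some act on transcription and differentiation. Type I interferon switches many of them on through transcription factors that bind the interferon-stimulated response element (ISRE). The genes lie side by side as a cluster of tandem copies, so their transcripts share sequence and short reads cannot always be assigned to 1 of them.

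The study sequenced ribosomal RNA-depleted total RNA of the chromatin fraction, which is rich in transcripts still being made, from primary macrophages grown from the bone marrow of C57BL/6J mice. Lipid A, the part of bacterial endotoxin that Toll-like receptor 4 senses, was given to all cells at 100 ng/ml for 12 h and then removed. After 12 h without it, a second dose of 100 ng/ml was given for 120 min. The 3 libraries are biological replicates 1, 2 and 3 of this single condition, made from 1000 ng, 250 ng and 500 ng of RNA. Untreated or singly stimulated cells were not analysed here, so every value is a level under this schedule and none is a response.

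The libraries held 10293545, 17820066 and 17548564 expected counts. All 12 macrophage markers, among them Adgre1 and Csf1r, were expressed, and of 34 markers of other cell types 1 was (Kdr, 7.39 ± 1.80 TPM), while 12 had no count. These marker values are alignment-based. In the read-based values, described below, some other markers were higher, among them Cd3d (14.1 ± 0.7 TPM), Pecam1 (7.87 ± 3.27 TPM) and Zbtb46 (2.21 ± 0.59 TPM). All 3 libraries carry the same donor label and the labels do not say whether they came from separate animals. Each spread is thus that between these libraries and may be technical.

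The sequences before the annotated starts show what most members have in common. RefSeq promoter windows (GRCm38.p6, 250 bases before to 50 after a start) were held for 9 of the 10 members, 11 windows in all, with Ifi204 not among them. The ISRE core, searched on both strands as GAAANNGAAA, was present in 7 of these 9 members, against 3.44% of all 32851 windows. The lines below give the stretch around it, with the core in capitals, written 5′ to 3′ on each gene's own strand. The line for Ifi209, which lacks the full core, shows the shorter interferon regulatory factor word in capitals.
Mndal: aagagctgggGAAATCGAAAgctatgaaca
Ifi203: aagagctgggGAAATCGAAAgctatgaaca
Ifi213: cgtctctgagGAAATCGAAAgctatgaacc
Ifi208: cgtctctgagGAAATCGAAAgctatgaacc
Ifi205: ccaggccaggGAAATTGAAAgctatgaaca
Ifi211: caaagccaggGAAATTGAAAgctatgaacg
Ifi207: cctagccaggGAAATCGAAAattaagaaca
Ifi209: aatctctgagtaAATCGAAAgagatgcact

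The printed stretch was identical over its 30 bases between Mndal (chr1:173880204-173880233) and Ifi203 (chr1:173942508-173942537), and again between Ifi213 (chr1:173599326-173599355) and Ifi208 (chr1:173673597-173673626). Ifi205 (chr1:174031870-174031899) and Ifi211 (chr1:173913064-173913093) shared another form of the core. Ifi208 and Ifi209 (chr1:173630770-173630799) lie on the plus strand and the others on the minus strand, Ifi207 at chr1:173741831-173741860. Counted from the annotated start as position 0, the core began at -36 in Mndal, -35 in Ifi203, -73 in Ifi213, -58 in Ifi208, -134 in Ifi205, -37 in Ifi211 and -41 in Ifi207. In 6 of the 7 members it thus lay within 73 bases before the RefSeq start. Distances from other isoform starts differ. Ifi213-202, with 61.4 ± 7.5% of Ifi213's expected counts, starts 0.2 kb into that gene. For Ifi205 the start used is that of Ifi205-201, while Ifi205-202, with 69.9 ± 8.7%, starts 0.055 kb before it. The other window of Mndal held a core on the opposite strand at -54, and Ifi205 held another on the opposite strand at 23. Both Mndal windows lie inside that gene. The printed Mndal core precedes the start of isoform Mndal-209, 62.3 kb into the gene, which held 1.80 ± 0.54% of Mndal's expected counts. Isoform Mndal-201, with 43.4 ± 1.9%, starts at 173942491, inside the Ifi203 window and after the core printed for Ifi203.

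The bases after the core were also shared. The 19-base word GAAATCGAAAgctatgaac was found in 5 of all 32851 windows, those of Mndal, Ifi203, Ifi213, Ifi208 and Ifi206, the last being another gene of the family's cluster. Its variant GAAATTGAAAgctatgaac was found in 2 windows, those of Ifi205 and Ifi211. Neither word occurred in a window of a gene outside the IFI200 cluster. Copies of a duplicated gene share their surroundings, so the windows are not independent observations.

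Other words were also counted. AANNGAAA, the shorter word bound by interferon regulatory factors and contained in the core, was present in 8 of 9 members, against 23.9% of all windows. The word of the gamma-activated site, TTCNNNGAA, was present in 1 of 9 (Ifi202b), against 8.30%. GAGGAA, the core bound by the macrophage factor PU.1, was present in 2 of 9 (Ifi213 and Ifi208), against 28.3%. TATAAA was present in 5 of 9, against 13.6%. With at most 1 mismatch allowed in its fixed bases, the ISRE core was found in 9 of 9 members, against 35.4% of all windows. A match describes letters only and shows no binding, and its relation to level was not tested. Among members with a window but no full core, Ifi209 had 69.5 ± 21.4 TPM and Ifi202b 0.14 ± 0.11 TPM.

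The window of the highest single-window member and that of the lowest member are given in full, with the core in capitals where there is one. The first is chr1:173599223-173599522 and the second chr1:173982795-173983094, both on the minus strand.
Ifi213: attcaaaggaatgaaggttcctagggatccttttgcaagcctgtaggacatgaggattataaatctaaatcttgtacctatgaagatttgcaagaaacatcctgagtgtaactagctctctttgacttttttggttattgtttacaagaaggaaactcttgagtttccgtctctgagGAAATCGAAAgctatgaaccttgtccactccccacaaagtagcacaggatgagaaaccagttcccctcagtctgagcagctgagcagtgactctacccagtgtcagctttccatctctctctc
Ifi202b: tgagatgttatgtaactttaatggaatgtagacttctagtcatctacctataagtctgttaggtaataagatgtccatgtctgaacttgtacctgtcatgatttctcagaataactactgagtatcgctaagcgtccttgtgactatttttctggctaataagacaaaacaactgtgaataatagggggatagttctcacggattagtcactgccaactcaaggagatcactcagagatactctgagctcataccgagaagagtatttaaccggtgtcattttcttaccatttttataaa

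**Figure D1:**
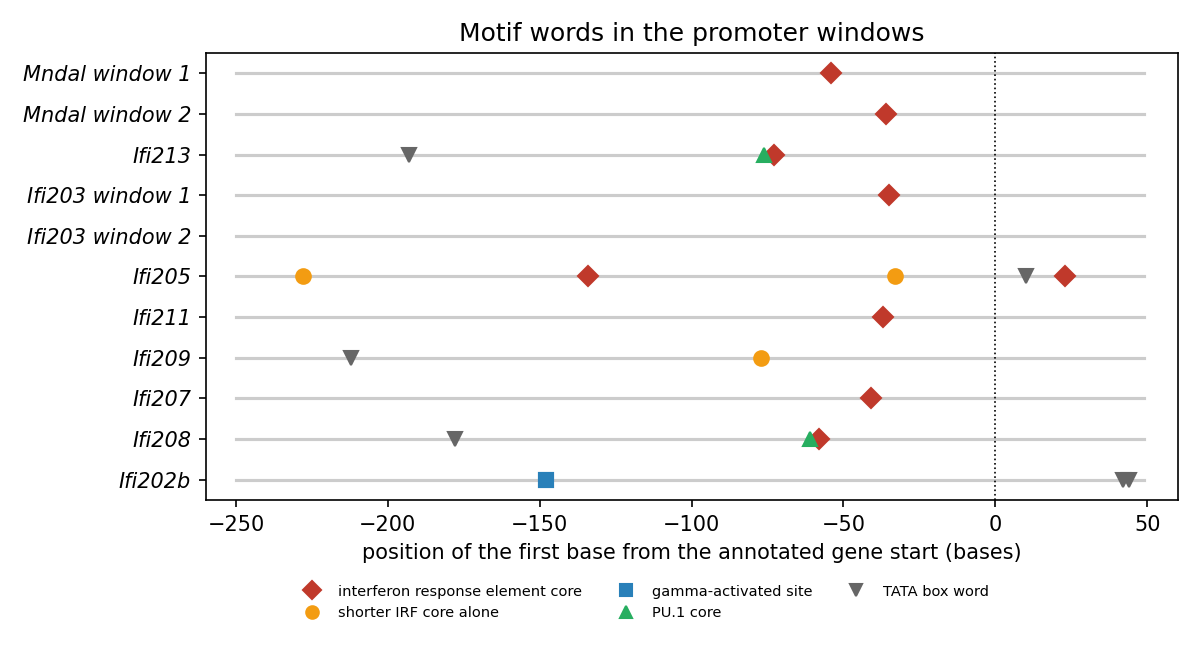
Positions of 5 motif words in the 11 promoter windows of 9 members, in bases from the annotated gene start, found on either strand. Each row is 1 window, and each symbol marks the first base of a word. The ISRE core (diamonds) appears in 8 windows, most often within 73 bases before the start.

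The family was strongly represented on chromatin. Levels are in TPM, which scales a count by transcript length and library total, and expressed means 1 TPM or more in all 3 libraries. By this rule 9 of the 10 members were expressed, against 42.0% of 22028 protein-coding genes. Each of the 9 was also above the median expressed gene in every library. The family's summed TPM was 1562, 1428 and 1257 in replicates 1, 2 and 3, a mean of 1416 ± 153 (SD, n = 3). The median member stood 3.14 ± 0.39 above the median expressed gene in log2(TPM + 0.1).

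Mndal, which encodes a protein related to the human myeloid nuclear differentiation antigen, had the highest level, at 472, 364 and 345 TPM. It was first of the 10 in each library, ranked 58 among protein-coding genes by mean TPM, and held 27.7 ± 2.4% of the family's summed TPM. Ifi213, also named Pydc4 for its pyrin domain, had 229, 265 and 199 TPM. Ifi204, known as p204 and implicated in macrophage differentiation and in DNA sensing through STING, had 220.1, 261 and 211 TPM. These 3 genes held 60.5 ± 1.7% of the summed TPM, and Mndal's lowest value was above the highest of Ifi213, whereas Ifi213 and Ifi204 overlapped.

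Ifi203, a nuclear member, had 199, 192 and 160.2 TPM. Ifi205, linked to expression of ASC in macrophages, had 124, 114 and 116 TPM. Its coefficient of variation between libraries was 4.72%, the lowest of the 10 in this table. In read-based TPM it was 14.2%, above the 8.17% of Ifi204 and the 12.8% of Mndal. Ifi211, for which RefSeq lists the synonym Mnda, had 116, 90.03 and 80.3 TPM, a range that overlaps that of Ifi205.

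Ifi209, for which RefSeq lists the synonym Pyhin1, had 94.2, 56.7 and 57.65 TPM. Ifi207 had 72.2, 63.3 and 60.4 TPM. The Ifi209 and Ifi207 ranges overlap, and their order differs between replicate 1 and the other 2 libraries. Ifi208, also named Pydc3, had 35.0, 23.0 and 27.4 TPM and was ninth in each library.

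Ifi202b is known for a protein with HIN domains and no pyrin domain that opposes the DNA sensor AIM2, and for scant expression in C57BL/6 mice. It was listed at 0.26, 0.13 and 0.04 TPM, from 5, 3 and 1 expected counts. Over the libraries these are 9 counts, with an exact 95% Poisson interval of 4.12 to 17.1 counts. The read-based table, described below, gave it 14, 13 and 12 estimated counts. Per effective length, Ifi208 stood 206-fold above Ifi202b over the libraries, with a counting interval of 109 to 451. In read-based TPM the fold was lower, at 106, 89.9 and 117 in replicates 1, 2 and 3. Reads had no molecular identifiers, so such intervals cover counting error only. Ifi202b was the member with the least shared sequence, as 98.8% of its transcript words were its own.

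**Figure D2:**
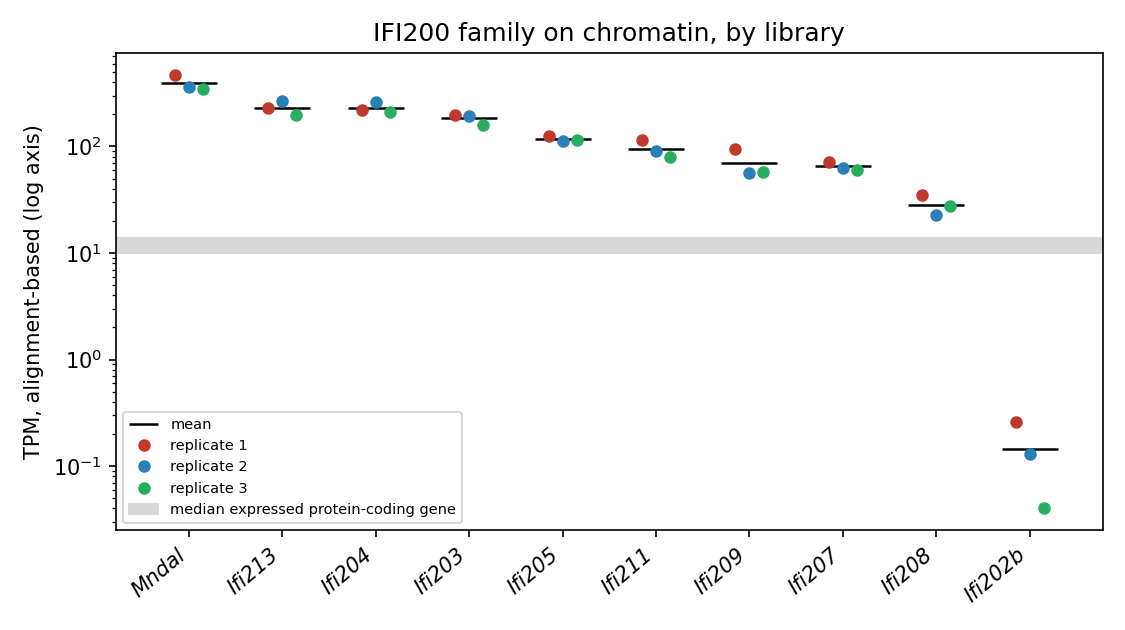
TPM of the 10 members (log axis) in replicates 1, 2 and 3, with the mean as a line and the range of the median expressed protein-coding gene (9.95, 13.9 and 12.05 TPM) as a grey band. Of the 10 members, 9 lie above the band in every library and Ifi202b lies far below it.

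The order was compared between the 9 pairs of neighbours in mean TPM, within each library. In 7 pairs the higher member was higher in every library and the mean difference exceeded its SD. The exact two-sided sign-flip test over 3 libraries cannot go below p = 0.25, which all 7 pairs had (0.321 after Benjamini-Hochberg adjustment over the 9 pairs), so no pair passed a threshold. In the alignment-based table the largest difference among neighbouring expressed members was Ifi207 over Ifi208, 1.21 ± 0.22 in log2(TPM + 0.1), and the next was Mndal over Ifi213 at 0.76 ± 0.29. In the read-based table the order of these differences turned, with 0.85 ± 0.16 for Ifi207 over Ifi208 and 1.03 ± 0.20 for Mndal over Ifi213. Ifi213 and Ifi204 differed by 0.00 ± 0.07 and Ifi209 and Ifi207 by 0.05 ± 0.29, both within their spread. With read-based values, described below, the middle of the order changed. There Ifi211 and Ifi209 differed by -0.01 ± 0.09, within their spread. Ifi209 over Ifi207 was then 0.59 ± 0.12 and Ifi213 minus Ifi204 -0.27 ± 0.15, both beyond their SD.

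Levels per length and raw counts order the members differently. In expected counts Mndal had 4941, 5743 and 6116, fewer than Ifi203 in each library, which had 6420, 7491 and 6956. Ifi204 also had more than Mndal in each library, at 5199, 7020 and 6202. Ifi213 had more than Mndal in replicates 1 and 2 (6204 and 7201) and fewer in replicate 3 (5921). The annotated isoforms of Mndal are 367 to 2026 bases long and those of Ifi203 444 to 3754 bases.

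The members lie together on chromosome 1 (mm10) between positions 173566283 and 174031810, a span of 465.5 kb, 8 on the minus strand and 2 (Ifi209 and Ifi208) on the plus strand. Within this span and 100 kb on either side, GENCODE M21 annotates 30 genes, of which 20 are not members. Of those 20, 3 were expressed: Ifi206 (18.3 ± 5.2 TPM), Ifi214 (7.97 ± 1.03 TPM) and the pseudogene Ifi203-ps (26.97 ± 14.99 TPM). The 9 olfactory receptor genes and pseudogenes that begin just beyond Ifi205 reached at most 0.55 TPM in any library, and none was expressed. Ifi203-ps had 44.3 TPM in replicate 1, against 18.02 and 18.6 in replicates 2 and 3.

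**Figure D3:**
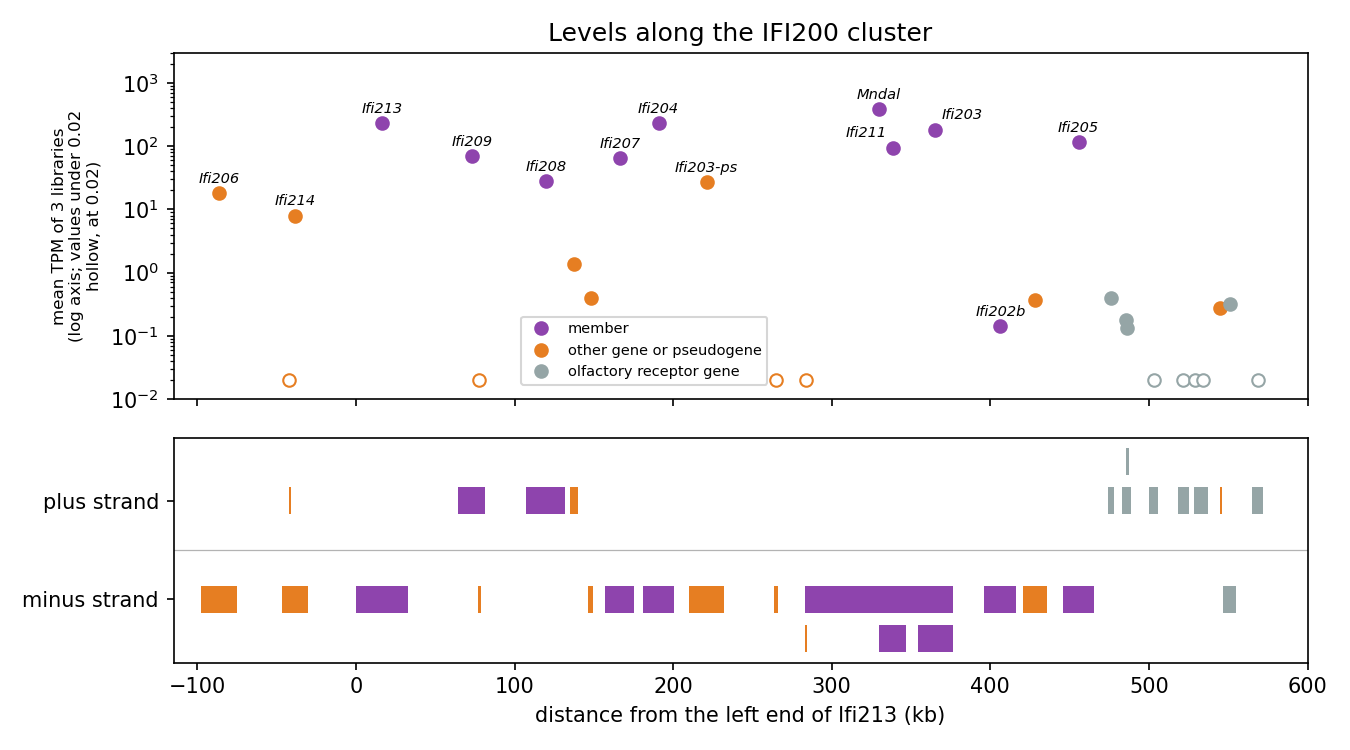
Mean TPM of 30 genes (upper panel, log axis, hollow where the mean was under 0.02) and their extents on both strands (lower panel), by distance in kb from the left end of Ifi213. Members other than Ifi202b stand between 28.5 and 394 TPM, while the olfactory receptor genes to the right stay at or under 0.40 TPM on average.

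Mndal overlaps 2 other members on its own strand. Its isoform of widest extent, Mndal-201, runs from 173857221 to 173942491 and so spans Ifi211 (173896345 to 173913046) and starts at the same base as 2 isoforms of Ifi203. That isoform held 43.4 ± 1.9% of Mndal's expected counts, at 2237, 2387 and 2648 counts in replicates 1, 2 and 3. The read-based table gave it 40.1 ± 4.1%. Mndal's other coding isoforms start 62.2 to 66.6 kb further along and held 1.72 to 7.30% each. Because the overlapping genes share a strand, stranded counting would not separate them.

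How far reads can be told apart was described by the share of 31-base words that a member's transcripts have in common with other genes. Ifi211 was the least distinct, with 78.9% of its words also in another member, 49.5% in Ifi205, 38.6% in Ifi204 and 25.2% in Mndal. Ifi213 and Ifi208 shared 23.3% and 30.7% of their words with each other. Ifi209 shared 0.085% with members and 46.8% with Ifi214, a gene of the cluster outside the list. Ifi203 shared 15.9% with the pseudogene Ifi203-ps. The other members kept between 66.0% and 98.8% of their words to themselves.

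The longest identical stretch of coding sequence joined Ifi205 and Ifi211, at 495 bases, from coding base 549 of Ifi205-201. The 90 bases shown cross into it and hold the last differences before the copies become identical, with differing bases in capitals.
Ifi205: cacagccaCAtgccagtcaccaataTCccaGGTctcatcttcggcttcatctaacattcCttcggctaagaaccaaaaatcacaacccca
Ifi211: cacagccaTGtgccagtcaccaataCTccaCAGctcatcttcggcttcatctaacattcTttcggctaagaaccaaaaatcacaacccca

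These are coding bases 489 to 578 of Ifi205-201 and 552 to 641 of Ifi211-201, on exons between 174017637 and 174026597 and between 173902023 and 173905542 of chromosome 1. They differ at 8 of 90 bases. The pair next in length was Ifi209 and Ifi214, with an identical run of 253 coding bases. The 120 bases before that run differ at 4 positions, again in capitals.
Ifi209: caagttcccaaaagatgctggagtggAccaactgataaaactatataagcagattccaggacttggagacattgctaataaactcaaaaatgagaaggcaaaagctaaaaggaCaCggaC
Ifi214: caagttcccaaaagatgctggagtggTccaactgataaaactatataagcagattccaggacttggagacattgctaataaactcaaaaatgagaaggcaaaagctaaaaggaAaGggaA

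These are coding bases 159 to 278 of both genes, on chromosome 1 between 173637464 and 173638881 for Ifi209 and between 173527963 and 173529377 for Ifi214.

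**Figure D4:**
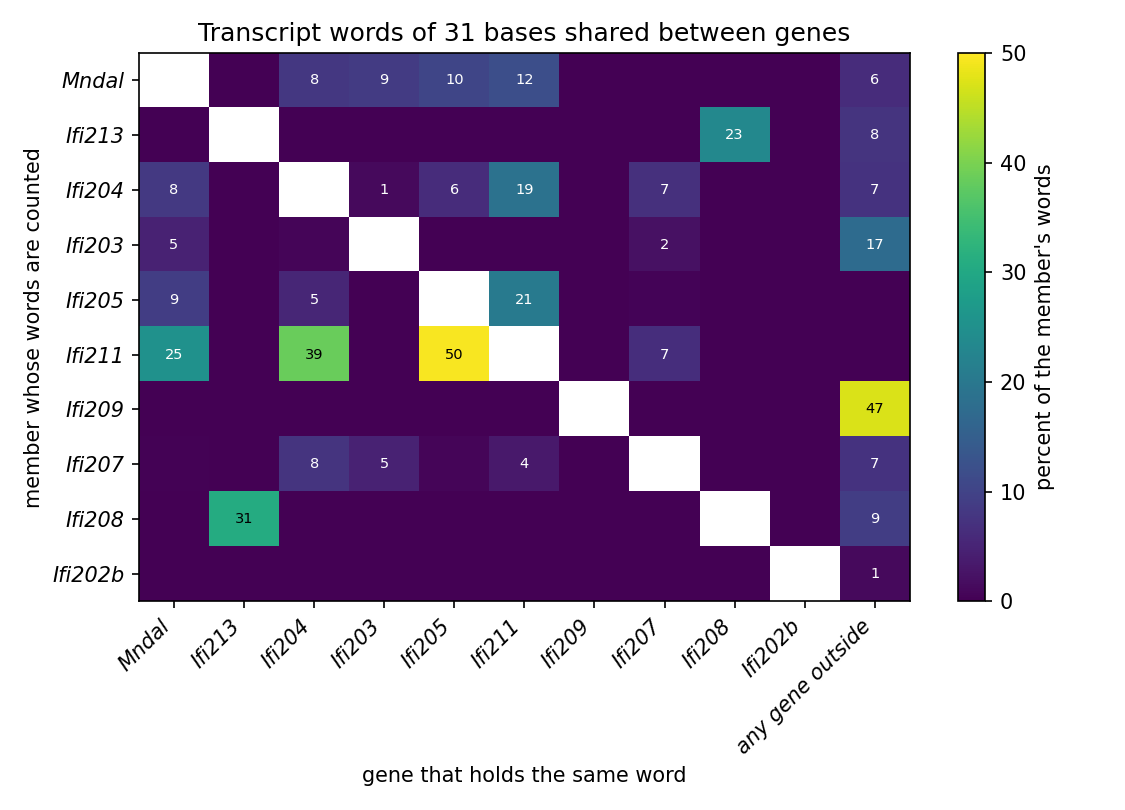
Percent of each member's 31-base transcript words (rows) that also occur in another member or in any gene outside the list (columns). Ifi211 shares most with Ifi205 and Ifi204, Ifi208 with Ifi213, and Ifi209 with genes outside the list.

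The authors deposited 2 quantifications of each library, one from alignments to the transcriptome (alignment-based, used above) and one made from the reads directly (read-based), and paralogues are where they could part. Over expressed protein-coding genes the read-based log2(TPM + 0.1) was higher by a median of 0.39 ± 0.06. With that shift left in, none of the 9 expressed members differed more than 1.5-fold in 1 direction in every library. The share over 9245 expressed protein-coding genes was 24.4%, also with the shift left in. Before the median shift was subtracted, Ifi209 differed most of the 9, at 136, 83.1 and 91.7 TPM read-based, against 94.2, 56.7 and 57.65 alignment-based. Its difference was 0.58 ± 0.08 in log2(TPM + 0.1), higher in 3 of 3 libraries, and that of Ifi208 was 0.41 ± 0.13, also in 3 of 3. Ifi213 was the only expressed member with a negative mean, at -0.17 ± 0.22. No exact sign-flip p over the 10 members was below 0.25, the smallest possible (0.5 after adjustment). With the median shift of expressed genes subtracted in each library, Ifi213 departed most of the expressed members, at -0.56 ± 0.17. Ifi207 was then at -0.35 ± 0.11, Ifi209 at 0.19 ± 0.09 and Ifi208 at 0.02 ± 0.10. The remaining expressed members were also below the median gene. These were Mndal (-0.30 ± 0.13), Ifi204 (-0.29 ± 0.08), Ifi203 (-0.31 ± 0.15), Ifi211 (-0.30 ± 0.10) and Ifi205 (-0.13 ± 0.09).

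The partner of Ifi209 moved far more. Ifi214 had 3516, 5464 and 5845 estimated counts in the read-based table, 11.9 ± 0.8 times its 287, 440.2 and 531 expected counts in the alignment-based table. All rows together had 1.76 ± 0.04 times as many in the read-based table, and Ifi209 had 1.79 ± 0.03 times as many. The miRNA gene Gm44481 within Ifi214 and Gm44339 within Ifi209 were listed at 0 TPM in the alignment-based table and at 20.3 ± 19.9 and 263 ± 148 TPM in the read-based one.

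The deposited uncertainty of the split between genes was small. The posterior SD of the count, which covers only how reads are divided among features, was 24.2, 22.5 and 23.9 counts for Ifi211, or 1.04 to 1.13% of its count. For the other members it was at most 0.557% of the count. Over expressed protein-coding genes the median was 0, and 10.2% of genes exceeded Ifi211. The half-width of the deposited TPM interval was 2.46 to 7.82% for expressed members and 75.4 to 126% for Ifi202b. The sources used here do not give the level of that interval.

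Isoforms gave the tables less common ground. Ifi209-202, annotated as a target of nonsense-mediated decay, held 10.5 ± 11.7% of the gene's counts in the alignment-based table and 41.3 ± 3.7% in the read-based one. Ifi207-202, a second coding isoform, held 0.69 ± 1.19% and 29.8 ± 2.5%. Mndal-210, a short noncoding isoform, had 755 expected counts in replicate 1 and none in replicates 2 and 3. The read-based table showed the same split, with 486 estimated counts in replicate 1, 2.30 in replicate 2 and none in replicate 3.

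Isoforms annotated with a retained intron, which contain intron sequence, were present in 6 members. Chromatin RNA is rich in transcripts still being made, and reads of unspliced transcripts were not told apart here from reads of these isoforms. The isoforms' share of the gene's expected counts was highest in Ifi205, at 59.9, 75.8 and 73.9% in replicates 1, 2 and 3. Ifi205 was the 1 of 6 members with at least 50% in every library, against 24.1% of 5967 expressed protein-coding genes with such an isoform. Ifi208 had 27.03, 41.7 and 45.2%. Mndal had 31.7, 41.7 and 39.2%. Ifi204, with 26.99, 39.4 and 43.6%, spanned a similar range. Ifi203 had 26.3, 31.5 and 35.7%, and Ifi213 had the lowest share at 10.2, 14.7 and 11.0%. The median of the 6 was 36.3 ± 8.1%, against 30.98 ± 0.06% over those 5967 genes. With read-based counts the medians were 43.7 ± 5.8% and 33.0 ± 0.9%, and Ifi208 had 56.0 ± 8.5%.

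Where the isoform lies differed between members. Of the 7 retained-intron isoforms, 4 (in Ifi204, Ifi203, Ifi205 and Ifi208) begin within 0.2 kb of the gene's start and end 6.585 to 9.47 kb into it. The isoform of Ifi213, with the lowest share, begins 18.9 kb into the gene and reaches its far end. Both isoforms of Mndal begin 62.3 and 73.7 kb from that gene's outermost start.

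All 6 members had their lowest retained-intron share in replicate 1, against 41.0% of the 5967 genes. With read-based counts it was again 6 of 6, against 49.2%. The median over the 5967 genes was 30.92, 30.97 and 31.04% in replicates 1, 2 and 3. Replicate 1 had the fewest counts and the largest RNA input, and the part of either in these shares was not tested.

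**Figure D5:**
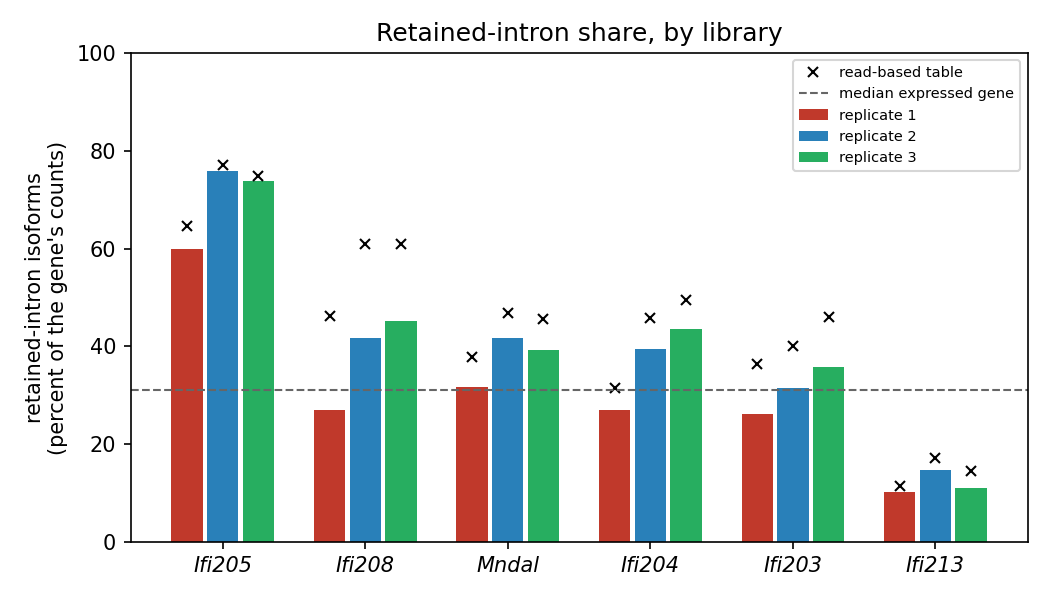
Share of each gene's expected counts on retained-intron isoforms (bars, replicates 1, 2 and 3), with the read-based share as crosses and the median expressed gene (30.98%) as a dashed line. Replicate 1 is the lowest of the 3 bars in each of the 6 members.

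Replicate 1 stood apart for the family in level as well. After TMM normalisation in edgeR, all 9 members with enough counts for the fit had their highest log2 CPM in replicate 1, against 38.3% of 12198 protein-coding genes. In TPM, 7 of the 9 were highest there, against 17.7% of expressed protein-coding genes, the exceptions being Ifi213 and Ifi204, highest in replicate 2. For Mndal this rests on the 512-base isoform Mndal-210, which held 169.85 TPM in replicate 1 and none in replicates 2 and 3. Without that isoform Mndal had 302, 364 and 345 TPM, and 6 of the 9 were highest in replicate 1. Single isoforms also weighed on Ifi209 and Ifi208. Ifi209-202 had 39.4, 3.71 and 5.97 TPM in replicates 1, 2 and 3, while Ifi209-201 had 54.9, 53.0 and 51.7. Ifi208-202 had 8.22, 0.23 and 0.56 TPM. The count of members without these isoforms was not computed. In read-based TPM all 9 members were highest in replicate 1, against 20.9% of the expressed genes in that table. The family took 0.342, 0.227 and 0.225% of all expected counts. The SD of log2 CPM over the 3 libraries ranged from 0.22 for Ifi205 to 0.50 for Ifi211, with a median of 0.35 over the 9. Among the 500 protein-coding genes nearest in mean CPM to each member, the median SD was between 0.21 and 0.23, and 52.2% of them for Ifi205 and 93.8% for Ifi211 had a lower SD than the member. Without replicate 1 the median over the 9 members was 0.11, so most of the spread lay between that library and the other 2. Replicate 1 had both the largest RNA input and the fewest counts, and these cannot be told apart here from any other difference of that library.

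Genes with the most similar pattern over the 3 libraries were sought by the distance between deviations of log2(CPM + 0.5) from the mean, among 6472 protein-coding genes outside the list with at least 100 expected counts in every library. The summed family deviated by 0.41, -0.20 and -0.21 in replicates 1, 2 and 3. The 5 nearest were Sh3bp4, Itgb2, Plin2, Acsl1 and St6galnac4, at distances of 0.00285 to 0.00819. With 3 libraries a roughly similar pattern is common, as 184 of the 6472 genes lay within 0.1 and 677 within 0.2. Both cutoffs are wider than the distances of the 5 nearest.

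Genes that work beside the family were also present. Aim2, the inflammasome sensor whose HIN domain binds cytosolic DNA, had 70.3, 88.6 and 51.2 TPM. Its mean of 70.0 ± 18.7 TPM was within the spread of that of Ifi209 (69.5 ± 21.4 TPM). In read-based TPM it had 104.3 ± 14.8, close to Ifi211 (103.3 ± 30.1) and Ifi209 (103.5 ± 28.2). Of the DNA sensing list 15 of 15 genes were expressed, with a median of 46.5 ± 12.5 TPM, against 107 ± 12 TPM for the 10 members. The 3 highest were Ikbke, a kinase that activates interferon regulatory factors (1840.1 ± 296 TPM), Samhd1, which degrades deoxynucleotides (542 ± 97 TPM), and Irf7, which drives interferon genes (298 ± 72 TPM). The lowest was Tmem173, which encodes STING (4.46 ± 0.19 TPM).

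Of the interferon signalling list 14 of 14 genes were expressed, with a median of 82.8 ± 4.8 TPM. Among the highest were the transcription factors Stat2 (554 ± 138 TPM) and Irf1 (290.0 ± 99.7 TPM). Irf9, a DNA-binding factor of the response element, had 42.9 ± 3.8 TPM. The lowest was Ifnb1, the interferon itself, at 3.94, 2.08 and 3.50 TPM. Without cells that lack Lipid A, none of these levels can be read as induction.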

How the data were processed

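Per the labels, chromatin RNA was depleted of ribosomal RNA and sequenced in 3 libraries. The authors deposited, per the file headers, estimated (expected) counts and TPM for genes and transcripts in RSEM's column layout (alignment-based). They also deposited estimated counts and TPM for transcripts in the layout of kallisto (read-based). The notes deposited beside them name build mm10 and GENCODE M21, while program versions, settings and strandedness were not given in the sources used here. Rows that name no annotated gene held 1.87, 0.390 and 0.519% of counts in replicates 1, 2 and 3. They stay in the deposited TPM and the printed library totals, and out of the fit and CPM.

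Read-based gene values are sums over a gene's transcripts. Levels were compared as log2(TPM + 0.1), with exact sign-flip tests over libraries. Sharing was counted over words of 31 bases in annotated transcripts, and motifs over RefSeq windows, in Python 3.11.15. The spread between libraries came from edgeR 4.0.16 in R 4.3.3 (TMM, rounded counts, at least 10 counts over the libraries, intercept only), and the code was tested on simulated data. Ifi202b, with 9 counts, was below that filter. Alternatives were other thresholds, pseudocounts, tables and denominators, DESeq2 1.42.0 size factors, and leaving out each library. Proteins were not analysed here.

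The members, gene lists, markers and motifs were chosen with earlier results of these data known, so counts over them are descriptions. Named genes were all members, genes of the locus, the 3 highest and the lowest of each list, and the 5 most like the summed family; 1 gene that the rule names is not reported here. Irf9, the marker genes and Aim2 were named for their roles, with Irf9, Cd3d, Pecam1 and Zbtb46 named after their values were seen.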

Additional observations from a re-analysis of the deposited data

How the results depend on the processing

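The number of expressed members was 9 under TPM thresholds of 0.5 and 5, with read-based or rescaled TPM and without any 1 library. Rescaling TPM to genes with an effective length of 200 bases or more, without mitochondrial, numeric and spike-in rows, raised the mean summed family TPM to 3588. It multiplies every TPM by 2.92, 2.18 and 2.46 in replicates 1, 2 and 3, where the sums became 4555, 3115 and 3095. Comparisons of TPM between libraries, such as the coefficient of variation of Ifi205, thus depend on this choice. Without 1 library, the count of members higher in the read-based table in every remaining library ranged from 5 to 8 (5 with all libraries), the 8 being without replicate 2. The median SD of log2 CPM over fitted members ranged from 0.11 (without replicate 1) to 0.40 in the same way, against 0.35 with all. Ifi213 minus Ifi204 turned to -0.27 with read-based TPM and ranged from -0.029 (without replicate 1) to 0.042 when 1 library was left out. Ifi211 minus Ifi209 turned to -0.0070 with read-based TPM, and Ifi209 minus Ifi207 ranged from -0.11 (without replicate 1) to 0.16 (without replicate 2) and was 0.59 with read-based TPM. The read-based minus alignment-based difference of Ifi209 was 0.020 in CPM, against 0.58 in TPM. In CPM, the same difference turned to -0.038 for Mndal, -0.031 for Ifi204, -0.055 for Ifi203, -0.0071 for Ifi211 and -0.11 for Ifi207. In TPM it ranged from -0.026 (without replicate 1) to 0.18 for Ifi203 and from -0.044 (without replicate 1) to 0.10 for Ifi207. The cause of these turns was not tested. The other alternatives for the summed results, 42 of 45, stayed within the spread or within 1.5 times. Among alternatives for the remaining results, 14 moved beyond these bounds, 12 turned in sign and 183 did neither. The 14 were retained-intron shares of members and SDs without replicate 1. Among them, the share of Ifi208 went from 38.0 to 56.0% and that of Ifi203 from 31.2 to 40.8% with read-based counts. With isoform TPM that of Ifi205 went from 69.9 to 51.9%. Leaving out Mndal-210 and using read-based TPM for the count of members highest in replicate 1 were chosen after seeing the data. No paired analysis was possible because all libraries belong to 1 group. Depth limits Ifi202b most, where 1 to 5 counts per library cannot show a difference between libraries.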
